A study of Mus musculus with 98 samples.

Results

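Interferon response genes were followed in cultured mouse cells: in totipotent blastomere-like cells (TBLC), which resemble blastomeres of the cleaving embryo, and in the cells they turned into towards primitive endoderm. The members were a fixed list of 9 gene symbols, Isg15, Ifit1, Ifit3, Oas3, Oasl2, Irf7, Ifi207, Bst2 and Ddx60, taken by name from every count table. All 9 were found in each table, among 21811 symbols that every table held. The series had 98 samples in 49 groups of 2 replicates, and counts for 86 samples in 43 groups were used, in 9 tables.

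Undifferentiated cells (TBLC, TBLC2, and the actinomycin D arms TBLC and TBLC_Ctrl) were kept in 2MYCP medium. Cells kept for 3 days in the medium SLM (diffTBLC) were read unsorted, or after sorting into CD140- cells (EPI-T) and CD140+ cells (PrE-T). Unsorted diffTBLC are therefore a mixture of both sorted kinds. Cells kept for 8 hours in SLM carry the name TBLC_PlaB-. Unsorted diffTBLC also received the control siRNAs siNC, siNC1 or siNC2, or siMettl3, siVirma or siIgf2bp3, against 2 writer subunits and a reader of N6-methyladenosine (m6A) in RNA. RNA immunoprecipitation (RIP) from diffTBLC used an antibody against IGF2BP3 or YTHDF2, each with its input, and no mock precipitation was among the samples used. In 4 courses, cells were read at 0, 1, 2 and 3 h of actinomycin D, which blocks transcription. Every group had n = 2. No label ties the replicates to separate cultures, so the spread between them may be technical. The p-values rest on a spread estimated over all groups of a table, with 2 libraries in each group. For slopes over the hours of actinomycin D, that spread also holds departure from a straight line.

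The libraries of TBLC and sorted cells summed to between 20302848 and 29471283 counts and those of the courses to between 11433895 and 23145666. They were lower in the steady-state siRNA libraries (3968442 to 4750020) and in TBLC2 (5036913 and 5238475). In the Igf2bp3 RIP they ran from 5236928 to 12177033 and in the Ythdf2 RIP from 2483808 to 12666298, the inputs being the shallow libraries. The sort was checked on 10 primitive endoderm genes, whose summed counts-per-million (CPM) level was 19450 and 19359 in PrE-T against 221 and 221 in EPI-T. In unsorted diffTBLC at 0 h the same sum was 3992 and 3973 CPM, against 341 and 344 in TBLC. Levels are CPM, scaled within a table and given as mean ± SD. Differences are on the log2 scale ± standard error (SE), adjusted p-values are from edgeR unless another tool is named, and a gene was called at an adjusted p under 0.05.

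Cells sense foreign or misplaced nucleic acid with cytosolic receptors and answer with type I interferons, which bind a receptor pair (Ifnar1, Ifnar2) and act through the kinases Jak1 and Tyk2 on transcription factors that include Stat2 and Irf9. Their complex binds a repeated GAAA element in the promoters of interferon-stimulated genes. Pluripotent and early embryonic cells are known for a weak interferon response. Among the members, Irf7 encodes a transcription factor that amplifies the response, and Ddx60 encodes a helicase linked to RNA sensing. Ifi207 belongs to the HIN-200 family of nucleic acid binding proteins. Isg15 encodes a ubiquitin-like modifier, Ifit1 and Ifit3 encode proteins that act on foreign RNA, Oas3 makes the second messenger that activates RNase L, Oasl2 is its relative, and Bst2 encodes tetherin, which holds budding virus at the cell surface.

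The core of that element, GAAA followed by any 2 bases and again GAAA, on either strand, was looked for in RefSeq promoter windows of 300 bases (250 before to 50 after each gene's start, GRCm38.p6). It was present in 7 of the 9 member promoters, all but Oasl2 and Irf7, and in 1131 of 32851 promoters overall (3.44%). A longer form, GGAAA followed by any 2 bases and GAAACT, which contains the core, was present in 4 member promoters (Ifit1, Ifit3, Bst2 and Ddx60) and in 38 overall (0.116%). A match is a description of these letters, not a site shown to be used, and the counts come from another build (mm39). Isg15, Ifit1, Ifi207, Oas3, Ddx60 and Bst2, all with a match, are shown by their 250 bases before the start, 5′ to 3′ on the gene's strand. Matches are in capitals (GAAA forms on the gene's strand, TTTC forms on the opposite strand). Oasl2 and Irf7, which have no match and also carry results below, are not shown, nor is Ifit3. Isg15 lies at chr4:156200819-156201068 on the minus strand and holds 3 overlapping matches that end 68, 62 and 56 bases before the start. Ifit1 lies at chr19:34640639-34640888 on the plus strand, with matches 94 and 75 bases before the start. Ifi207 lies at chr1:173741810-173742059 on the minus strand, with 1 match 31 bases before it. Oas3 lies at chr5:120777660-120777909 on the minus strand, with 1 match 65 bases before it. Ddx60 lies at chr8:61927837-61928086 on the plus strand, with matches 43 and 9 bases before it. Bst2 lies at chr8:71537473-71537722 on the minus strand, with 2 overlapping matches 120 and 114 bases before it.
Isg15: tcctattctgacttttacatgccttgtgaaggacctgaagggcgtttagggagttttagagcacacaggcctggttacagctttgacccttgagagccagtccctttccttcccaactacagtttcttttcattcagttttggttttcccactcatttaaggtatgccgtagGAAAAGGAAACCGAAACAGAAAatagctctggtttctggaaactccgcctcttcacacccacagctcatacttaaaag
Ifit1: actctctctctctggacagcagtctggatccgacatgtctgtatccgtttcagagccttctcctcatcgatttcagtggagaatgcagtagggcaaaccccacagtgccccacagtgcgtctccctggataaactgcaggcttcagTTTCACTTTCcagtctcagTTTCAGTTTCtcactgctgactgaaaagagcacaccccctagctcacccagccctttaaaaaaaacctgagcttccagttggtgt
Ifi207: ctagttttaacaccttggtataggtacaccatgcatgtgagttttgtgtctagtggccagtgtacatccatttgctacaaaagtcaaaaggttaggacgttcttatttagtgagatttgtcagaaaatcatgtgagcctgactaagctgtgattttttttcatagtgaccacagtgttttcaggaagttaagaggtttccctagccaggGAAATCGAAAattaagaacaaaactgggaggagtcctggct
Oas3: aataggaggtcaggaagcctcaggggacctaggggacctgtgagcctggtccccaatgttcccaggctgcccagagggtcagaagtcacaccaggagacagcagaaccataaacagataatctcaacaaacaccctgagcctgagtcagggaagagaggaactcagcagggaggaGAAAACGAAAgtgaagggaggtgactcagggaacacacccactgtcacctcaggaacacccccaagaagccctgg
Ddx60: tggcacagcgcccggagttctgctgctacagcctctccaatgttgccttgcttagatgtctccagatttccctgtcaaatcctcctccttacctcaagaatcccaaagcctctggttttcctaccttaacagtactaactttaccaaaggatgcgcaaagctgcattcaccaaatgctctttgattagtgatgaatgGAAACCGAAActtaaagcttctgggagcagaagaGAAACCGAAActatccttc
Bst2: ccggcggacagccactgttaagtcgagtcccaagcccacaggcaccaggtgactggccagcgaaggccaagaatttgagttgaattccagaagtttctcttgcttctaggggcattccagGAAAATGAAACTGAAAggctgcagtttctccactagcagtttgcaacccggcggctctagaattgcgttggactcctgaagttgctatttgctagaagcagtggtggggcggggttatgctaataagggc

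Undifferentiated TBLC carried most members at low but countable levels, and both sorted populations carried less of most of them. Of 8 members that passed the filter on low counts (all but Oas3), 7 were lower in PrE-T than in TBLC and none was higher, where 33.8% of all 14373 tested genes were lower and 33.5% higher. In EPI-T, 5 were lower than in TBLC and 1, Bst2, was higher, where 34.8% of all genes were lower and 30.1% higher. The median difference of the tested members was -3.51 in PrE-T and -2.81 in EPI-T, against -0.03 and -0.07 over all tested genes. Several members passed the filter only because they were countable in TBLC, so these counts and medians describe the list and support nothing. Both comparisons share the TBLC libraries. In RNA from mixed cells, fewer cells of a type and less RNA per cell cannot be told apart.

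The transcription factor gene Irf7 had 15 and 16 counts in the TBLC libraries, 3 and 0 in PrE-T, and 0 and 1 in EPI-T. The mean level was 0.642 ± 0.0787 CPM in TBLC, 0.0559 in PrE-T and 0.024 in EPI-T, with TBLC above every sorted library. The difference was -3.35 ± 1.2 in PrE-T (adjusted p = 0.0222) and -4.56 ± 1.4 in EPI-T (adjusted p = 0.0107). As ratios of counts, TBLC stood 10.9 times above PrE-T (exact 95% counting interval 3.39 to 55.5) and 28.9 times above EPI-T (4.82 to 1178), intervals that cover counting error only. The PrE-T call was lost without PrE-T replicate 2 (-2.46, adjusted p = 0.203), without TBLC replicate 1 (0.0983) or 2 (0.134), in DESeq2 (0.063) and without the filter (0.0873). The EPI-T call was lost without EPI-T replicate 1 (-3.60, adjusted p = 0.116) and without TBLC replicate 1 (0.0563) or 2 (0.0776).

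Ifi207, the HIN-200 member, was lower in both sorted populations. It had 175 and 178 counts in TBLC, 7 and 11 in EPI-T, and 2 and 7 in PrE-T. Every TBLC library stood above every sorted library, at 7.30 ± 0.652 CPM against 0.407 ± 0.17 in EPI-T and 0.182 ± 0.152 in PrE-T. The difference was -5.32 ± 0.54 in PrE-T (adjusted p = 1.61e-07) and -4.17 ± 0.49 in EPI-T (adjusted p = 9.76e-07). These calls held when any 1 library was left out. The handling of reads shared between HIN-200 copies is not given in the sources used here, so its counts are uncertain to that extent.

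The helicase gene Ddx60 set the sorted populations apart. Its counts were 29 and 21 in TBLC, 12 and 26 in EPI-T, and 0 and 2 in PrE-T. EPI-T and TBLC overlapped (0.87 ± 0.534 and 1.02 ± 0.154 CPM, difference -0.25 ± 0.79, adjusted p = 0.798), while PrE-T lay below both. PrE-T was lower than TBLC by -4.53 ± 1.1 (adjusted p = 0.00209) and lower than EPI-T by -4.28 ± 1.1 (adjusted p = 0.00334). In counts EPI-T stood 21.4 times above PrE-T (5.54 to 183) and TBLC 26.3 times (6.91 to 223).

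Among the effectors, Isg15 had 67 and 53 counts in TBLC, 4 and 15 in PrE-T, and 0 and 1 in EPI-T. TBLC was at 2.46 ± 0.218 CPM, PrE-T at 0.384 ± 0.333 and EPI-T at 0.024 ± 0.0339, with no overlap between any of the 3 groups. PrE-T was lower than TBLC (-2.69 ± 0.75, adjusted p = 0.00444), and so was EPI-T (-6.49 ± 1.1, adjusted p = 7.05e-05), where TBLC stood 112 times above EPI-T in counts (19.7 to 4456). The PrE-T call was lost without PrE-T replicate 1 (-1.98, adjusted p = 0.0549) and without TBLC replicate 1 (-2.58, 0.0571).

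Ifit3 had 22 and 13 counts in TBLC, 1 and 0 in PrE-T, and 0 and 4 in EPI-T. Its relative Ifit1 had 10 and 33 in TBLC, 2 and 7 in PrE-T, and 1 and 5 in EPI-T, so that its TBLC replicates alone spread from 0.391 to 1.44 CPM. For both genes every TBLC library lay above the sorted ones. Ifit3 was lower in PrE-T (-4.87 ± 1.4, adjusted p = 0.00677) and in EPI-T (-2.91 ± 1.2, adjusted p = 0.0394). The PrE-T call for Ifit3 was lost without PrE-T replicate 2 (-4.08, adjusted p = 0.0745) and without TBLC replicate 1 (-4.53, 0.0704). Its EPI-T call was lost without EPI-T replicate 1 (-1.86, adjusted p = 0.279), TBLC replicate 1 (0.235) or TBLC replicate 2 (0.114), in DESeq2 (0.103), without the filter (0.121) and with the replicate number as a block (0.0675). Ifit1 was lower in EPI-T (-2.70 ± 1.1, adjusted p = 0.0383) and did not pass in PrE-T (-2.31 ± 1.0, adjusted p = 0.0564). Its EPI-T call was lost without EPI-T replicate 1 (-1.89, adjusted p = 0.252), EPI-T replicate 2 (-4.30, 0.0517) or TBLC replicate 2 (-1.48, 0.463), in DESeq2 (0.0641) and without the filter (0.0837). In PrE-T it passed under library totals (-2.63, adjusted p = 0.0301) and with only the libraries compared (-2.32, 0.0351).

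Of the oligoadenylate synthetase relatives, Oasl2 had 25 and 14 counts in TBLC, 3 and 0 in PrE-T, and 4 and 6 in EPI-T. It was lower in PrE-T (-3.66 ± 1.1, adjusted p = 0.0093) and did not pass in EPI-T (-1.81 ± 0.96, adjusted p = 0.11). The PrE-T call was lost without PrE-T replicate 2 (-2.77, adjusted p = 0.117) and without TBLC replicate 1 (-3.28, 0.0993). Oas3 was near the floor throughout this table, at 2 and 0 counts in TBLC, 2 and 2 in PrE-T, and 3 and 8 in EPI-T, and was not tested.

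Bst2 departed from the other members. Its counts were 466 and 451 in TBLC, 579 and 511 in EPI-T, and 314 and 294 in PrE-T. EPI-T lay highest (24.1 ± 0.551 CPM), TBLC between (18.9 ± 1.03) and PrE-T lowest (11.9 ± 0.31), with no overlap. PrE-T was lower than TBLC by -0.67 ± 0.13 (adjusted p = 0.000304). EPI-T was higher than TBLC by 0.35 ± 0.13 (adjusted p = 0.0252), a call lost under library totals (0.14, adjusted p = 0.373), without EPI-T replicate 2 (0.33, 0.0782) and without TBLC replicate 1 (0.30, 0.126).

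Set directly against each other, PrE-T and EPI-T differed in 3 of the 8 tested members, 1 higher and 2 lower in PrE-T, where 35.8% of all genes were higher and 32.8% lower. Isg15 was higher in PrE-T (3.81 ± 1.3, adjusted p = 0.016, or 16.8 times in counts, 2.68 to 699.9), while Bst2 (-1.02 ± 0.13, adjusted p = 2.93e-06) and Ddx60 were lower. The Isg15 call rested on few counts and was lost without EPI-T replicate 1 (2.85, adjusted p = 0.105) and without PrE-T replicate 2 (2.49, 0.194). Ifi207 did not pass (-1.15), but it did without PrE-T replicate 2 (-2.34, adjusted p = 0.0395). Ifit1 (0.39), Ifit3 (-1.95), Oasl2 (-1.85) and Irf7 (1.2) did not pass either.

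The unsorted culture gave a second reading of the same move in other libraries. In diffTBLC at 0 h of actinomycin D, 6 of 8 tested members were lower than in TBLC and 1, Bst2, was higher, where 39.7% of all 14463 tested genes were lower and 42.8% higher. The median over the tested members was -2.37, against 0.02 over all genes. Isg15, Ifit1, Oasl2 and Irf7 were under the filter's count of 10 in diffTBLC at 0 h and above it in TBLC. The counts of members called and the median therefore describe the list here too and support nothing. The 7 calls held when any 1 of the 4 libraries was left out.

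Ifi207 had 117 and 99 counts in TBLC and 9 and 7 in diffTBLC, or 4.85 ± 0.234 against 0.404 ± 0.0649 CPM. Ddx60 had 59 and 49 against 11 and 10 (2.42 ± 0.149 and 0.53 ± 0.0271 CPM). Neither gene's groups overlapped, and both were lower in diffTBLC, Ifi207 by -3.57 ± 0.27 (adjusted p = 1.98e-21) and Ddx60 by -2.18 ± 0.29 (adjusted p = 1.23e-10). Isg15 had 19 and 12 counts against 1 and 3, Ifit1 31 and 15 against 2 and 1, Oasl2 21 and 14 against 5 and 3, and Irf7 13 and 15 against 2 and 2. All of these were lower: Isg15 by -2.71 ± 0.63, Ifit1 by -3.66 ± 0.60, Oasl2 by -1.93 ± 0.52 and Irf7 by -2.57 ± 0.64, with adjusted p between 6.33e-08 and 0.00055. Ifit1, with 3 counts in diffTBLC, stood 13.6 times higher in TBLC (4.38 to 68.5). Oas3 overlapped (15 and 10 against 11 and 16 counts, 0.28 ± 0.42, adjusted p = 0.538), and Ifit3 was not tested at 4 and 7 against 5 and 5 counts.

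Bst2 went the other way by a wide margin. It had 399 and 337 counts in TBLC (16.5 ± 0.819 CPM) and 1294 and 1257 in diffTBLC (64.5 ± 0.268 CPM), a rise of 1.96 ± 0.057 (adjusted p = 1.87e-48). In the sorted table PrE-T was below TBLC and EPI-T 0.35 above it, so the unsorted level lay outside the range of both sorted populations, although the tables were scaled separately and were not tested against each other.

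**Figure D1:**
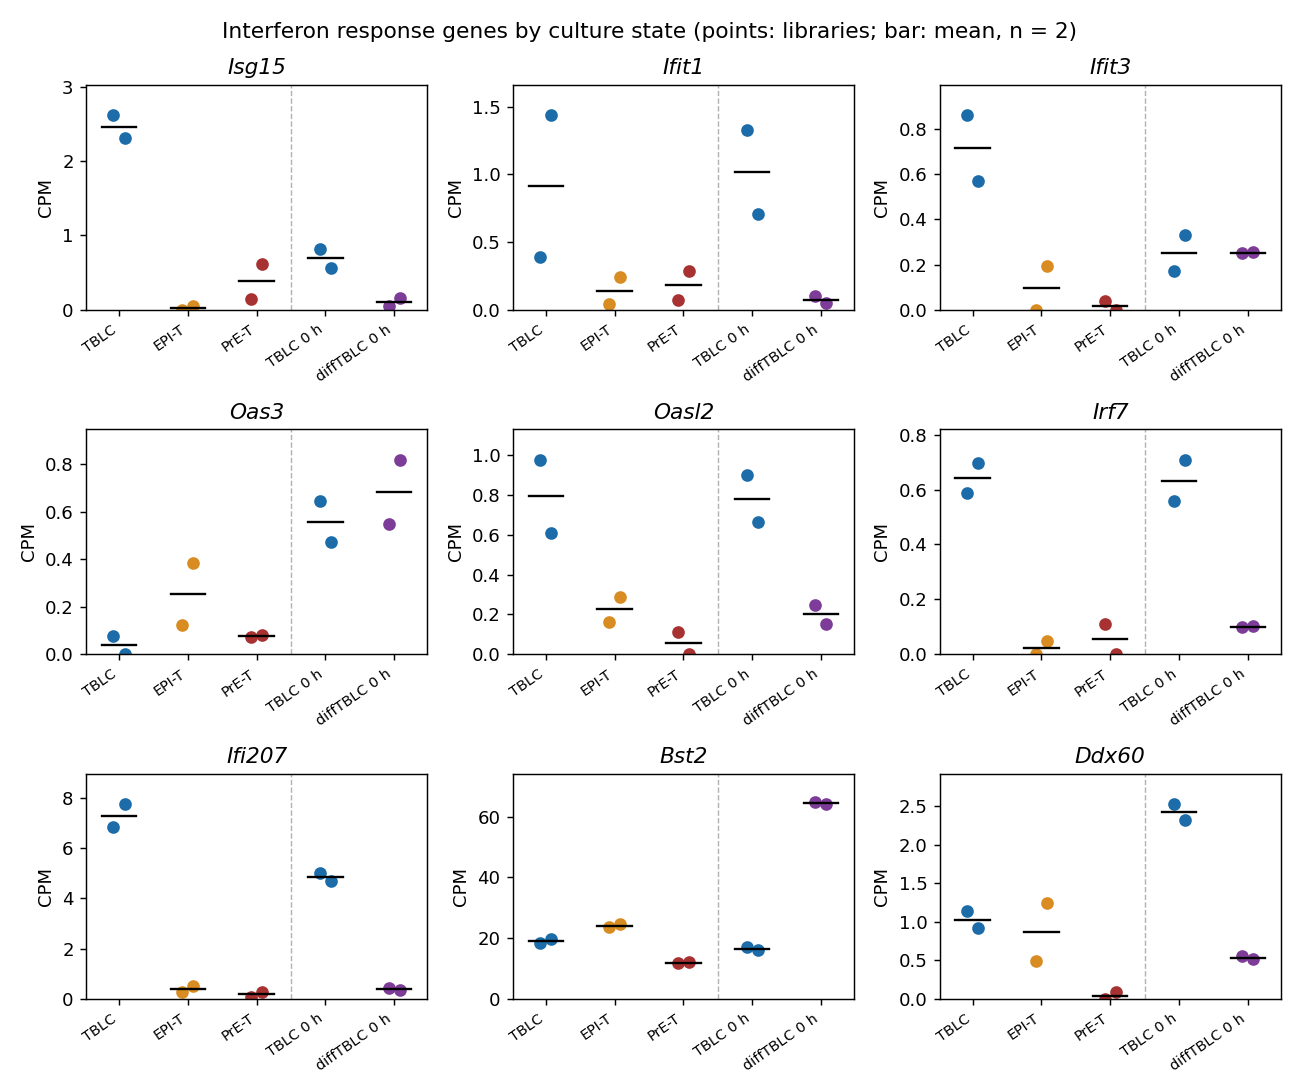
Levels of the 9 members in TBLC, EPI-T and PrE-T (left of the dashed line) and in TBLC and diffTBLC at 0 h of actinomycin D (right, another table), in CPM on linear axes that differ by gene. Points are libraries and bars are means of n = 2; Ifi207 fell from 7.30 to 0.407 and 0.182 CPM, while Bst2 stood at 64.5 CPM in unsorted diffTBLC against 16.5 in TBLC.

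Set side by side over the tables, the 8 untreated libraries in 2MYCP and the 16 control or untreated libraries after 3 days of SLM separated fully for Ifi207 alone among the members. Its levels ran from 4.68 to 10.3 CPM (median 8.56) in 2MYCP and from 0 to 2.14 (median 0.288) in SLM. Bst2 ran from 13.8 to 19.7 (median 16.4) in 2MYCP and from 11.7 to 95 (median 36.6) in SLM, and Isg15 from 0.567 to 2.62 (median 1.06) and from 0 to 2.31 (median 0.151). TBLC2, which has no comparison group, held 48 and 49 counts of Ifi207, 71 and 72 of Bst2, 10 and 13 of Ifit1, 11 and 2 of Ifit3, and 9 and 5 of Ddx60. Isg15 had 6 and 6 counts there, Oas3 6 and 4, Oasl2 1 and 6, and Irf7 2 and 1.

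Markers of other cell types moved with these differences. The summed level of 16 fibroblast and feeder genes was 1339 and 1299 CPM in TBLC, 263 and 253 in PrE-T and 77.1 and 82.4 in EPI-T, and 15 and 16 of the 16 genes were lower in PrE-T and in EPI-T. In the unsorted table it was 538 and 548 in TBLC against 231 and 231 in diffTBLC. Only Lum was at 0 in any of these groups, in EPI-T. The sum of 14 immune genes was 157 and 156 CPM in TBLC, 74.6 and 70.1 in PrE-T and 65.9 and 68.9 in EPI-T, most of it Laptm5 (116 CPM in TBLC). Of 11 immune genes tested, 9 were lower in PrE-T than in TBLC and none higher, 8 were lower and 1 higher in EPI-T, and 4 were lower and 2 higher in diffTBLC. The shares of all genes were 33.8% lower and 33.5% higher in PrE-T, 34.8% and 30.1% in EPI-T, and 39.7% and 42.8% in diffTBLC. The macrophage gene Csf1r had 55 and 64 counts in TBLC, 12 and 17 in PrE-T and 0 in EPI-T, and Adgre1 had 19 and 16, 2 and 2, and 0. Itgam had 10 and 12 counts in TBLC, 0 in PrE-T and 23 and 7 in EPI-T. The pan-leukocyte gene Ptprc (8 and 3 counts) and Tyrobp (2 and 4) were near the floor in TBLC and at 0 in both sorted groups. The part of such cells in the loss of member transcripts was not tested.

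The wider pathway was read from lists by role. Of all tested genes, 33.8% were lower and 33.5% higher in PrE-T than in TBLC, and 34.8% and 30.1% in EPI-T. In diffTBLC the shares were 39.7% and 42.8%. They apply to all list counts against TBLC that follow. None of 12 interferon ligand genes passed the filter in any table, and together they had 98 counts over 86 libraries, with at most 5 in a library. Of 6 receptor genes, 1 was lower in PrE-T than in TBLC and 5 in EPI-T, none being higher. The interferon receptor genes Ifnar1 and Ifnar2 did not pass in PrE-T (-0.23, adjusted p = 0.0598, and 0.13, 0.511), and both were lower in EPI-T (-0.45 and -2.70 ± 0.21). Of 6 JAK-STAT genes, 5 were lower and 1 higher in PrE-T, 4 lower in EPI-T, and 5 lower and 1 higher in diffTBLC. Irf9 was lower than in TBLC in PrE-T (-0.62), EPI-T (-0.53) and diffTBLC (-0.89). Stat2 went up in PrE-T (0.63 ± 0.15, but 0.30 under library totals, adjusted p = 0.0788) and diffTBLC (0.40 ± 0.061), and did not pass in EPI-T (0.29, adjusted p = 0.101).

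Of 12 sensors and adaptors, 8 were lower and 1 higher in PrE-T, 5 lower and 2 higher in EPI-T, and 10 lower in diffTBLC. Sting1, the adaptor of DNA sensing, was lower by -3.90 ± 0.34 in PrE-T, and Zbp1, a sensor of Z-form nucleic acid, by -4.37 ± 0.22 in diffTBLC. Ddx58, which encodes the RNA sensor RIG-I, was lower in PrE-T (-2.15 ± 0.13) and diffTBLC (-0.80 ± 0.056). Other effectors and targets were lower in 23 of 31 cases in PrE-T (1 higher, median -2.09), 17 of 31 in EPI-T (6 higher, median -0.63) and 24 of 32 in diffTBLC (5 higher, median -1.12). Among them were Ifitm3, an inhibitor of virus entry, in PrE-T (-2.89 ± 0.1), the secreted glycoprotein gene Lgals3bp in EPI-T (-4.76 ± 0.24) and Xaf1 in diffTBLC (-3.62 ± 0.073).

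The HIN-200 relatives of Ifi207 were also lower than in TBLC: all 4 that were tested in PrE-T (median -3.48) and in EPI-T (median -6.92, or -5.43 with uncounted groups at their bound), and all 5 in diffTBLC (median -3.68, or -3.53). Between PrE-T and EPI-T 2 of the 4 were higher in PrE-T and none lower (median 2.09), where Ifi207 was at -1.15 and did not pass. Of all genes 35.8% were higher and 32.8% lower in that comparison. Ifi202b was lower by -3.57 ± 0.36 in PrE-T, -7.99 ± 0.58 in EPI-T and -2.75 ± 0.14 in diffTBLC. Interferon-gamma GTPase genes, which act on vacuoles of intracellular pathogens, were lower in 5, 4 and 6 of 6 cases in PrE-T, EPI-T and diffTBLC, with Irgm1 at -4.32 ± 0.31, -1.98 ± 0.25 and -3.21 ± 0.1. Antigen presentation was split, with 5 lower and 3 higher of 9 in PrE-T, 6 lower and 2 higher of 9 in EPI-T. In diffTBLC 5 were lower and 4 higher of 10, near the shares of all genes (39.7% and 42.8%). B2m, the light chain of class I molecules, was lower in EPI-T (-4.45 ± 0.089), while the class I gene H2-K1 was higher in PrE-T (1.41 ± 0.17) and diffTBLC (1.40 ± 0.06).

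After 8 hours in SLM no tested member was called at 0 h of the actinomycin D course. At 0 h of that course, TBLC_Ctrl and TBLC_PlaB- held 161 and 201 against 199 and 187 counts of Ifi207, 14 and 19 against 23 and 16 of Isg15, and 225 and 328 against 240 and 299 of Bst2. In each case the groups overlapped. Of 8 tested members 0 were called by edgeR, 0 had an unadjusted p under 0.05 and 0 were called by DESeq2, where 1.25% of all 14107 genes were called. Ifi207 differed by 0.04 ± 0.11, Ddx60 by 0.47 ± 0.30 (adjusted p = 0.674) and Irf7 by 0.61 ± 0.47 (adjusted p = 0.748). Averaged over 1 to 3 h, Bst2 was lower in TBLC_PlaB- by -0.12 ± 0.045 (adjusted p = 0.0471), the 1 member called of 8, where 7.84% of all genes were lower and 12.8% higher. That call was lost in DESeq2 (adjusted p = 0.189), without the filter (0.058) and without any library but TBLC_Ctrl at 2 h, replicate 1 (0.0593 to 0.227).

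Blocking transcription separated the members by how their share of RNA moved. Slopes were fitted in log2 units per hour and show change against the bulk of the transcripts, since no spike-in is described. A slope passed the threshold in 65.2% of all genes in TBLC, 59.4% in diffTBLC, 61.9% in TBLC_Ctrl and 65.2% in TBLC_PlaB-. Ifi207 fell in each 2MYCP or 8-hour arm. In TBLC_Ctrl its counts were 161 and 201 at 0 h, 95 and 118 at 1 h, 62 and 78 at 2 h, and 42 and 67 at 3 h. In TBLC_PlaB- they were 199 and 187, 137 and 141, 85 and 83, and 47 and 61. The level dropped from 10.2 to 3.96 CPM in TBLC_Ctrl and from 10.4 to 3.75 in TBLC_PlaB-, with slopes of -0.51 ± 0.054 (adjusted p = 5.35e-09) and -0.52 ± 0.052 (adjusted p = 1.97e-09). In the TBLC arm the slope was -0.31 ± 0.058 (adjusted p = 9.96e-05), from 117 and 99 counts to 45 and 54. In diffTBLC, from 9 and 7 to 4 and 5 counts, it did not pass (-0.21 ± 0.19, adjusted p = 0.361).

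Bst2 rose relative to other transcripts in the same 4 arms. Its level in TBLC was 17.1 and 15.9 CPM at 0 h, 18.0 and 19.5 at 1 h, 22.2 and 24.8 at 2 h, and 29.3 and 31.5 at 3 h. In diffTBLC it was 64.6 and 64.3, 62.1 and 62.8, 81.6 and 79.3, and 115 and 111 CPM. In both arms the 3 h libraries lay above all earlier ones. The slopes were 0.30 ± 0.04 in TBLC, 0.28 ± 0.034 in diffTBLC, 0.26 ± 0.039 in TBLC_Ctrl and 0.34 ± 0.038 in TBLC_PlaB-, with adjusted p between 1.89e-08 and 2.07e-06. The difference between diffTBLC and TBLC was -0.02 ± 0.052 (adjusted p = 0.872).

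Of the other members Ifit1, Ddx60 and Isg15 had a slope that passed in 1 or 2 of these arms, and the rest in none. Ifit1 fell in TBLC, from 31 and 15 to 7 and 8 counts (-0.47 ± 0.14, adjusted p = 0.0066), and was at 0.02 and -0.03 in TBLC_Ctrl and TBLC_PlaB-. Ddx60 rose in TBLC, from 59 and 49 to 99 and 87 counts (0.26 ± 0.051, adjusted p = 0.000155), with -0.02 in TBLC_Ctrl. In TBLC_PlaB- its slope was -0.24 ± 0.11 (adjusted p = 0.0475), a call lost in DESeq2 (0.138), with RLE scaling (0.0545), with the replicate block (0.0509), without the filter (0.0649) and without 0 h (-0.02, 0.933). It was also lost without the TBLC_PlaB- libraries at 0 h, replicate 1 (-0.14, adjusted p = 0.325) or 2 (0.0894), at 2 h, replicate 1 (0.0895) or 2 (0.0785), and at 3 h, replicate 2 (0.181). Isg15 rose in TBLC_PlaB-, from 23 and 16 to 25 and 24 counts (0.31 ± 0.099, adjusted p = 0.00815, but 0.22 and 0.0503 under library totals). Irf7 did not pass in TBLC (0.26 ± 0.12, adjusted p = 0.0773) but did without TBLC at 2 h, replicate 2 (0.28, 0.0487). Differences between slopes were not called for any member, 0 of 8 between diffTBLC and TBLC (8.21% of all genes called) and 0 of 8 between TBLC_PlaB- and TBLC_Ctrl (0.411%). At an unadjusted p under 0.05 there were 1 (Ddx60, -0.38 ± 0.13, adjusted p = 0.109) and 0, and DESeq2 called 0 in both. Comparing 3 h with 0 h alone, Ddx60 passed in diffTBLC against TBLC (-0.45, adjusted p = 0.0458), and without 0 h Bst2 passed in TBLC_PlaB- against TBLC_Ctrl (0.22, adjusted p = 0.0027).

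**Figure D2:**
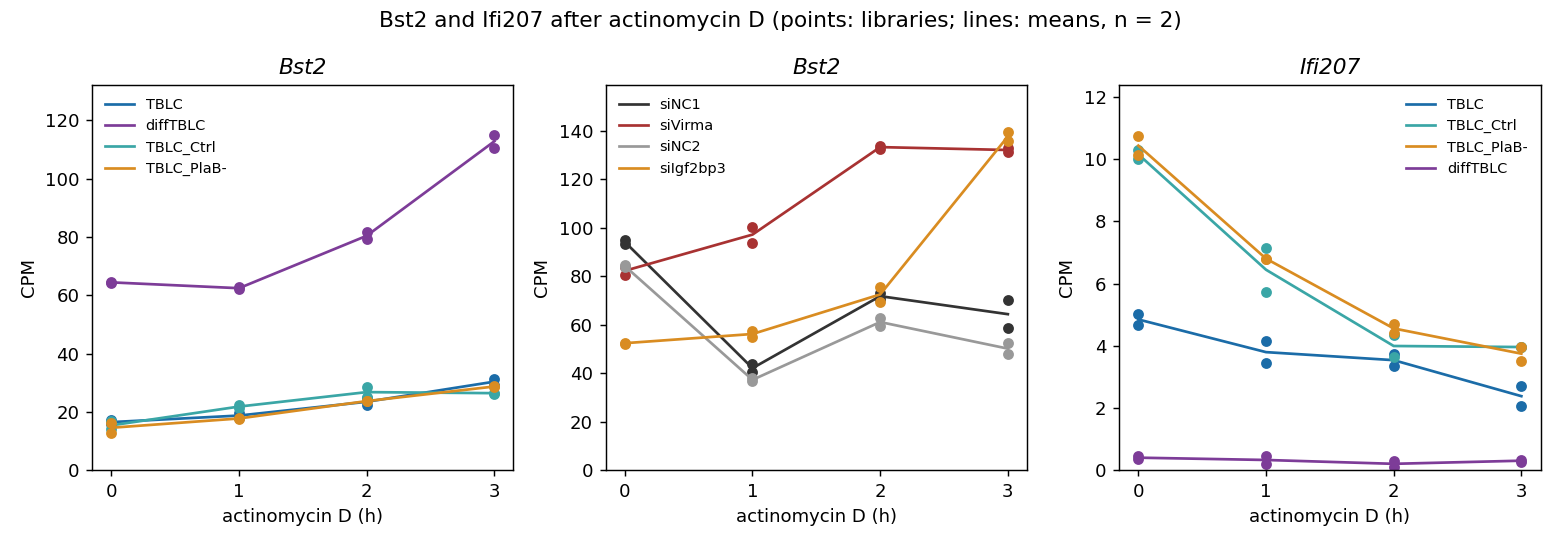
Bst2 (left and middle) and Ifi207 (right) in CPM on linear axes against hours of actinomycin D; points are libraries and lines join means of n = 2. Ifi207 dropped from about 10.2 to 3.96 CPM in TBLC_Ctrl, Bst2 reached 113 CPM in diffTBLC at 3 h, and siNC1 and siNC2 dip at 1 h.

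At steady state, siRNA against the m6A writers left few counts to compare. Virma was lower in siVirma (83.8 ± 4.3 against 118 ± 5.2 CPM, -0.50 ± 0.085, adjusted p = 1.89e-06), while Mettl3 in siMettl3 did not pass (-0.18 ± 0.15, adjusted p = 0.771). Isg15 had 9 and 11 counts in siNC, 3 and 12 in siMettl3 and 5 and 5 in siVirma. Bst2 had 133 and 156, 149 and 174, and 155 and 168, or 30.6 ± 3.14, 35.2 ± 2.83 and 39.4 ± 0.457 CPM. The siVirma libraries lay above those of siNC for Bst2 and below them for Isg15. Of these 2 tested members 0 were called by edgeR or DESeq2 in either comparison, where 7.11% (siVirma) and 0.865% (siMettl3) of all 12141 genes were called. At an unadjusted p under 0.05 there was 1, Bst2 in siVirma (0.36 ± 0.14, adjusted p = 0.108), and none in siMettl3 (0.21, adjusted p = 0.689). Isg15 differed by -0.78 ± 0.69 (adjusted p = 0.594) and -0.37 ± 0.63 (adjusted p = 0.922).

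The 7 members under the filter had from 0 to 10 counts in each of these libraries. In siNC, siMettl3 and siVirma in turn, Ifit1 had 8 and 9, 8 and 9, and 3 and 2 counts, and Irf7 had 8 and 10, 1 and 3, and 3 and 5. Ddx60 had 9 and 4, 3 and 1, and 2 and 0. Summed over libraries and scaled, siVirma held 0.339 times as much Ifit1 as siNC (exact 95% counting interval 0.0978 to 0.957). For Ddx60 the ratio was 0.177 (0.0194 to 0.783). These intervals leave out the spread between libraries. In an edgeR fit without the filter, which uses that spread, Ifit1 (-1.53 ± 0.86, adjusted p = 0.432) and Ddx60 (-2.38 ± 1.3, adjusted p = 0.392) did not pass.

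The siRNA courses need a caution before their results. In siNC1 and siNC2 the 1 h libraries stood off the line between 0 h and 2 h, by a median of 0.337 and 0.406 on the log2 scale over all tested genes. In the other 6 arms this distance was 0.0662 to 0.123, and replicates differed by 0.0684 to 0.102. The 2 h libraries stood off the line between 1 h and 3 h by 0.21 in siNC1 and 0.254 in siNC2. In the other 6 arms this second distance, which does not use 0 h, was 0.056 to 0.102. These values do not show whether the 0 h or the 1 h control libraries are the ones out of place. The place of the 0 h libraries of siNC1 and siNC2 in the course is therefore in doubt too. The window of 1 to 3 h holds the 1 h libraries and shares this doubt. The arms were compared over 1 to 3 h, and also at 0 h and without the 1 h libraries. Virma was lower in siVirma at 0 h (-0.27 ± 0.061, adjusted p = 3.15e-04) and over 1 to 3 h (-1.04 ± 0.035). Igf2bp3 was higher at 0 h in the libraries labelled siIgf2bp3 (0.56 ± 0.079, adjusted p = 2.84e-07) and lower over 1 to 3 h (-0.58 ± 0.041), so the label went against the target at 0 h.

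In this course the siVirma libraries carried more Isg15, Oasl2, Ddx60 and Bst2 than siNC1 over 1 to 3 h. Of 5 members tested, these 4 were higher over 1 to 3 h, where 35.5% of all 13664 genes were higher and 36% lower, and Isg15 and Oasl2 ranked 8 and 15 from the top of all tested genes. The median of the 5 was 1.29, against 0.00 over all genes. Isg15 passed the filter on low counts through its siVirma libraries, and Oasl2 and Ddx60 passed it mainly through theirs. Members low in both arms were not tested. The count of members called and the median therefore describe the list here too and support nothing. The 4 calls held without any 1 library and without the 1 h libraries. The steady-state siVirma libraries gave other signs for 3 of these genes, none called there. Isg15 was at -0.78 and, without the filter, Oasl2 at -0.62 and Ddx60 at -2.38, while Bst2 was at 0.36. Isg15 had 20 counts in the shallow siNC libraries and 10 in siNC1 over 1 to 3 h, so the control of this course was low. The 2 experiments were not tested against each other.

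Isg15 had 1 and 0 counts at 0 h in siNC1, 1 and 0 at 1 h, 1 and 2 at 2 h, and 2 and 4 at 3 h. In siVirma it had 9 and 8, 11 and 4, 13 and 14, and 9 and 12. At matched hours siVirma was always above siNC1, and over 1 to 3 h the difference was 2.72 ± 0.43 (adjusted p = 1.46e-06), or 6.08 times in counts (3.10 to 13.3). At 0 h it was 3.55 ± 0.95 (adjusted p = 0.00171), where 60.3% of all genes were called.

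Oasl2 had 6 and 1, 9 and 2, 10 and 1, and 2 and 1 counts at 0 to 3 h in siNC1. In siVirma it had 19 and 19, 22 and 15, 24 and 19, and 19 and 16. The arms did not overlap, and siVirma was higher by 2.30 ± 0.33 over 1 to 3 h (adjusted p = 2.6e-07) and by 2.14 ± 0.57 at 0 h (adjusted p = 0.00166). Ddx60 had 2 and 1, 12 and 6, 1 and 2, and 4 and 3 counts in siNC1, and 12 and 8, 16 and 11, 10 and 12, and 8 and 4 in siVirma. It was highest in siNC1 at 1 h, the libraries out of time order, and the arms overlapped. The difference was 1.29 ± 0.34 over 1 to 3 h (adjusted p = 0.00129) and 2.38 ± 0.69 at 0 h (adjusted p = 0.00353).

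The difference of Bst2 had opposite signs at 0 h and over 1 to 3 h, the first resting on the 0 h libraries of siNC1. In siNC1 it stood at 93.4 and 95 CPM at 0 h, 43.7 and 40.6 at 1 h, 73.1 and 70.5 at 2 h, and 70.2 and 58.6 at 3 h. In siVirma it stood at 80.8 and 83.9, 101 and 93.9, 133 and 134, and 133 and 131. At 0 h siVirma was lower by -0.20 ± 0.056 (adjusted p = 0.00332), and over 1 to 3 h it was higher by 1.04 ± 0.033 (adjusted p = 3.99e-23). Oas3 had 12 and 10, 8 and 7, 4 and 11, and 10 and 9 counts in siNC1 and 9 and 11, 16 and 7, 7 and 10, and 11 and 4 in siVirma, and did not pass (0.07 ± 0.30, adjusted p = 0.847). The 4 members under the filter had at most 7 counts in any library of the course. In a fit without the filter Ifit3 passed (2.96 ± 1.3, adjusted p = 0.0395) on 11 counts against 2, while Ifit1, Irf7 and Ifi207 did not.

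**Figure D3:**
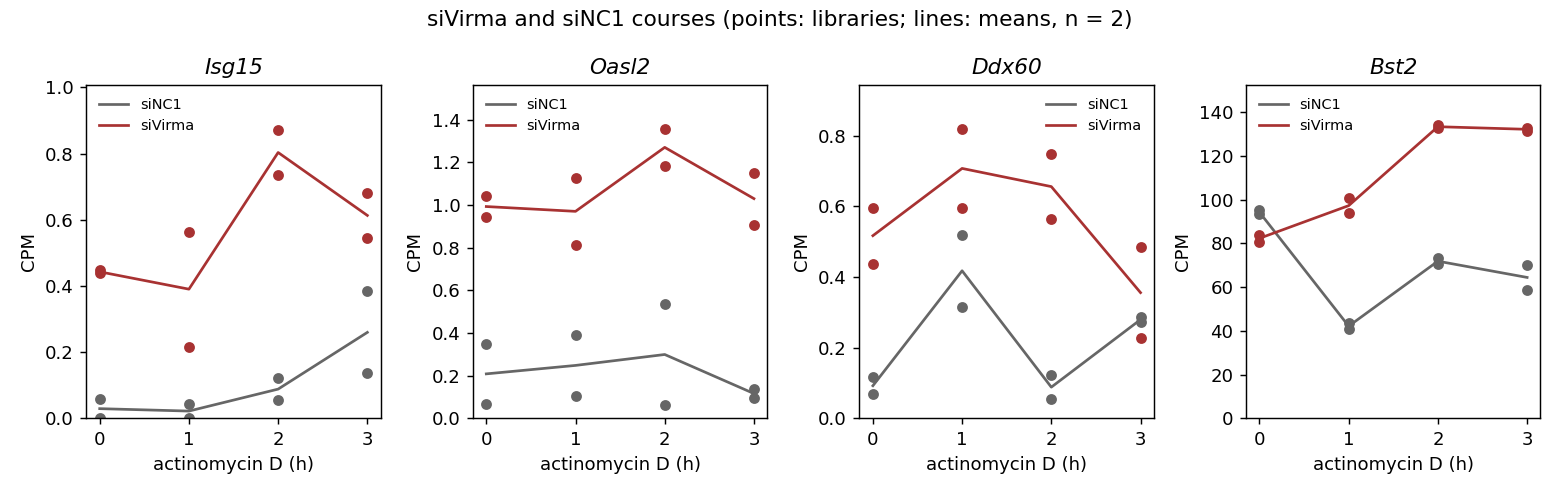
Isg15, Oasl2, Ddx60 and Bst2 in CPM on linear axes against hours of actinomycin D in siNC1 (grey) and siVirma (red); points are libraries and lines join means of n = 2. At 0 h Isg15, Oasl2 and Ddx60 are higher in siVirma while Bst2 is lower (82.3 against 94.2 CPM), and from 1 h on Bst2 is higher too.

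Of the other pathway genes in the same course, the interferon-gamma GTPase genes stood higher in siVirma at 0 h and over 1 to 3 h and the other lists were split. Of 8 GTPase genes listed, 6 passed the filter on low counts, and all 6 were higher, over 1 to 3 h (median 1.73) and at 0 h (median 1.67). Of all genes 35.5% were higher over 1 to 3 h, and 60.3% were called in either direction at 0 h. Genes low in both arms were not tested, so this count describes the list. Gbp2 rose by 2.96 ± 0.16, Gbp3 by 3.58 ± 0.39 and Igtp by 1.71 ± 0.2. Of 27 other effectors 12 were higher and 3 lower over 1 to 3 h, where 35.5% of all genes were higher and 36% lower, and at 0 h 9 and 2, where 60.3% of all genes were called in either direction. Antigen presentation genes were higher in 6 of 9 cases over 1 to 3 h, with H2-K1 at 0.91 ± 0.034, but at 0 h 2 were higher and 3 lower. JAK-STAT genes went from 0 higher and 4 lower of 6 over 1 to 3 h to 3 higher and 0 lower at 0 h. The siNC1 libraries also held more primitive endoderm transcript, a summed 3080 to 4035 CPM over 1 to 3 h against 1255 to 1364 in siVirma, and all 10 of those genes were lower in siVirma. The sum of 16 fibroblast genes was 140 to 201 against 159 to 183 CPM and that of 14 immune genes 80.7 to 114 against 80.7 to 104. The part of these marker differences in the member values was not tested.

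Within siVirma, the slope of Bst2 was 0.25 ± 0.093 (adjusted p = 0.0435), where 38.1% of all genes were called. It was lost under library totals (0.17, adjusted p = 0.103), with the replicate block (0.054), without 0 h (0.0854), and without either siVirma library at 0 h (0.125 and 0.114), 1 h (0.06 and 0.0659) or 3 h (0.0784 and 0.0739), or replicate 1 at 2 h (0.0629). In siNC1 its slope was -0.11 ± 0.088 (adjusted p = 0.316), 0.31 without 0 h and -0.18 without the 1 h libraries. Isg15 had a slope of 1.14 ± 0.39 in siNC1 (adjusted p = 0.0238), where 45% of all genes were called, from libraries with 0 to 4 counts. This was lost without 0 h (1.47, adjusted p = 0.057) and without replicate 2 of siNC1 at 0 h (1.06, 0.0621) or at 3 h (0.79, 0.197). Of the 5 members 0 differed in slope between siVirma and siNC1, where 8.94% of all genes did, with 2 at an unadjusted p under 0.05 and 1 called by DESeq2. The one was Bst2 (0.36 ± 0.13, adjusted p = 0.0621, or 0.0314 in DESeq2). Its difference passed when 3 h was compared with 0 h (0.41), without the 1 h libraries (0.43, adjusted p = 9.34e-09) and without siNC1 at 1 h, replicate 1 (0.39, 0.013) or 2 (0.40, 0.00958). The other was Isg15 (-0.90 ± 0.41, adjusted p = 0.114).

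In the second siRNA course only Oas3 and Bst2 passed the filter. Bst2 stood in siNC2 at 84.5 and 84.0 CPM at 0 h, 36.7 and 37.9 at 1 h, 59.5 and 62.8 at 2 h, and 52.4 and 48.0 at 3 h. In the libraries labelled siIgf2bp3 it stood at 52.2 and 52.7, 57.3 and 55.1, 75.6 and 69.5, and 139 and 136. These libraries were lower at 0 h (-0.68 ± 0.051, adjusted p = 8.48e-13) and higher over 1 to 3 h (0.77 ± 0.031, adjusted p = 2.19e-19), where 65.7% of all 13580 genes were called at 0 h and, over 1 to 3 h, 32.9% were higher and 37.1% lower. Bst2 rose within them by 0.46 ± 0.095 per hour (adjusted p = 0.000925), where 53.5% of genes were called, against -0.18 ± 0.095 in siNC2 (44.5% of genes called; adjusted p = 0.142, but -0.25 without the 1 h libraries, 1.26e-05, and -0.21 without siNC2 at 1 h, replicate 1, 0.0446). The slopes differed by 0.63 ± 0.13 (adjusted p = 0.00267), the 1 member called of 2, where 52.4% of all genes were called. Without 0 h the difference was 0.43 (adjusted p = 0.116).

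Oas3 had 9 and 3, 15 and 10, 17 and 9, and 8 and 5 counts in siNC2 at 0 to 3 h, and 13 and 16, 12 and 8, 17 and 8, and 9 and 4 in the libraries labelled siIgf2bp3. It did not pass over 1 to 3 h (-0.13 ± 0.28, adjusted p = 0.701) or at 0 h (0.97 ± 0.48, adjusted p = 0.0763). Oasl2, under the filter, had 44 counts over 1 to 3 h in the libraries labelled siIgf2bp3 and 18 in siNC2, 2.45 times as many after scaling (1.39 to 4.50), and passed in a fit without the filter (1.21 ± 0.44, adjusted p = 0.0122). Isg15 had from 0 to 9 counts in each library of the course. Without the filter, a slope of -0.77 ± 0.25 passed for Ifit1 in siNC2 (adjusted p = 0.0426). Antigen presentation genes behaved like Bst2, with 8 of 9 higher over 1 to 3 h and 5 lower with none higher at 0 h. Among all genes 32.9% were higher over 1 to 3 h, and 65.7% were called in either direction at 0 h.

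In the Igf2bp3 RIP, 2 members stood among the transcripts most enriched over input. Ifi207 had 11 and 12 counts in the inputs and 665 and 664 in the precipitates (2.03 ± 0.152 against 61.1 ± 3.62 CPM). Oas3 had 9 and 7 against 427 and 400 (1.41 ± 0.231 against 37.9 ± 0.539 CPM). For both genes the groups lay far apart, by 4.90 ± 0.17 for Ifi207 (adjusted p = 1.01e-184) and 4.73 ± 0.21 for Oas3 (adjusted p = 3.63e-114), which ranked 3 and 4 from the top of 12904 tested genes. In an edgeR fit without the filter the differences were 4.96 and 4.80, with adjusted p of 4.83e-19 and 2.61e-17. The size of these p-values thus depends on the fit. In scaled counts the ratios were 30.0 (19.9 to 47.5) and 26.8 (16.4 to 47.1). Of 5 members tested 3 were higher and 1 lower in the precipitate, where 35% of all genes were higher and 34.8% lower, and the median was 1.59 against -0.01 over all genes. Oasl2, the member at that median, passed the filter on low counts through its precipitates, and the remaining members were not tested. The count of members called and the median therefore describe the list here too and support nothing.

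Oasl2, with 5 and 7 against 25 and 45 counts, was higher by 1.59 ± 0.43 (adjusted p = 4e-04), a call lost without replicate 2 of the precipitate (1.05, adjusted p = 0.135). Bst2 was depleted, with 168 and 192 against 134 and 126 counts in deeper libraries, or 31.8 ± 3.43 against 11.9 ± 0.201 CPM (-1.42 ± 0.12, adjusted p = 1.82e-29). Its groups did not overlap. Ddx60 had 14 and 5 against 16 and 4 counts and did not pass (-0.86 ± 0.49, adjusted p = 0.105). It passed as lower under library totals (-1.06, adjusted p = 0.0447), without input replicate 2 (-1.40, 0.0327) and without replicate 1 of the precipitate (-2.07, 0.0362).

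The remaining members were under the filter. Ifit1 had 1 and 2 against 19 and 9 counts, a ratio of 4.84 (1.5 to 24.9), and passed in a fit without the filter (2.28 ± 0.77, adjusted p = 0.0168). Irf7 had 3 and 4 against 11 and 6, a ratio of 1.26 (0.497 to 3.59). Isg15 had 3 and 3 against 1 and 2 and Ifit3 6 and 2 against 7 and 3. The ratio of Isg15, 0.259, had an interval of 0.042 to 1.21. Of the related genes, the HIN-200 gene Ifi203 (2.38 ± 0.39), the GTPase gene Gbp7 (2.72 ± 0.46), the helicase gene Helz2 (1.40 ± 0.099) and the receptor gene Ifnar1 (1.03 ± 0.067) were higher in the precipitate. Of 20 other effectors 7 were higher and 2 lower, of 11 sensors 5 and 4, and of 9 antigen presentation genes 0 and 6. Among all tested genes 35% were higher and 34.8% lower. Of 10 primitive endoderm genes 9 were higher in the precipitate and 1 lower, of 15 fibroblast and feeder genes 13 and 1, and of 10 pluripotency genes 2 and 7. The part of these differences in the members' values was not tested.

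In the Ythdf2 RIP, Oas3 was lower in the precipitate than in an input where it stood high. It had 13 and 16 counts in the inputs and 11 and 8 in the deeper precipitates, 5.38 ± 0.163 against 0.814 ± 0.261 CPM, and was lower by -2.72 ± 0.42 (adjusted p = 2.69e-08). Over the 16 control or untreated libraries after 3 days of SLM, Oas3 had a median of 0.616 CPM and its highest level, 5.49, in these inputs. The precipitates were near that median, in tables scaled separately. The reason for the high inputs was not tested. Bst2 had 96 and 116 against 101 and 110 counts (39.3 ± 0.68 against 8.91 ± 0.365 CPM) and was lower by -2.14 ± 0.15 (adjusted p = 9.55e-21). Both of the 2 tested members were thus lower and none higher, where 38.8% of all 12364 genes were lower and 40.2% higher. Oas3 passed the filter on low counts only through its inputs, where it is high. The count of members called therefore describes the list here too and supports nothing. Ifi207 and Isg15 had 0 counts in all 4 libraries, which allows up to 0.557 CPM in the inputs and 0.126 in the precipitates at 3 counts per group, so no enrichment could be computed. Ddx60 had 4 and 0 against 13 and 12 counts, Irf7 1 and 3 against 0 and 2, Oasl2 1 and 0 against 1 and 4, Ifit3 1 and 1 in both, and Ifit1 0 and 0 against 0 and 1. The 2 RIP experiments were not tested against each other.

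**Figure D4:**
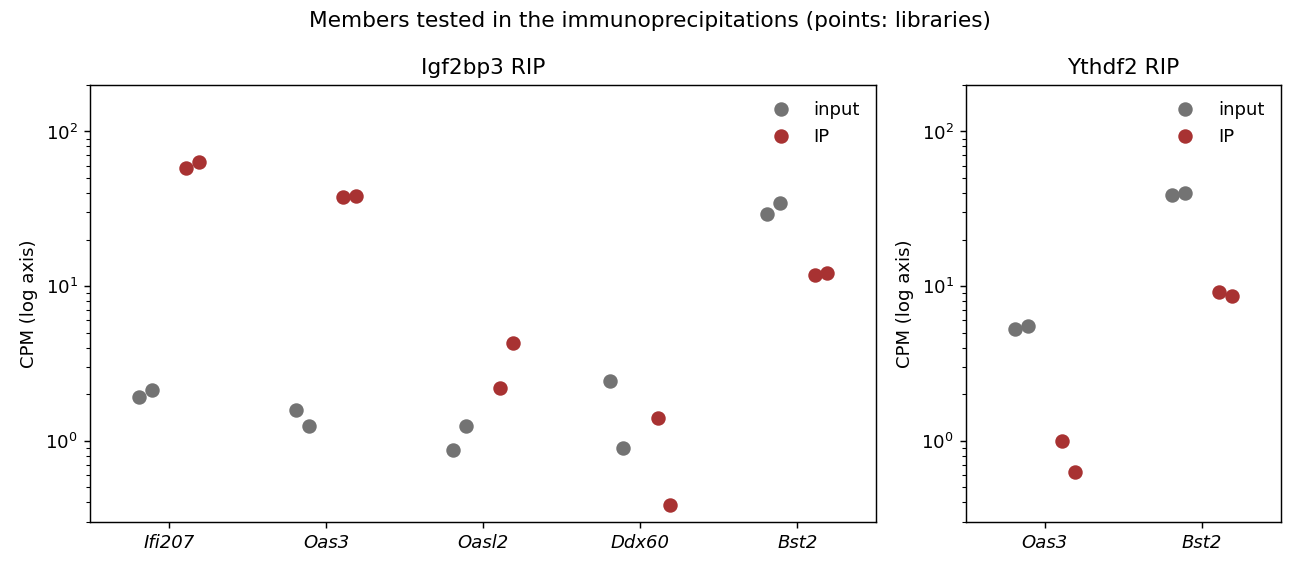
CPM on a log axis of the members tested in the Igf2bp3 RIP (left) and Ythdf2 RIP (right), input libraries in grey and precipitates in red, 2 points each. Ifi207 and Oas3 stand at 61.1 and 37.9 CPM in the Igf2bp3 precipitates against 2.03 and 1.41 in their inputs, and in both experiments Bst2 is lower in the precipitate.

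Members differed in how far they followed the rest. Every group but TBLC2 was used, the RIP inputs and precipitates included, so enrichment over input enters as a difference of level. Over 42 groups, with log2 CPM centred within each table, the correlation of a member with the mean of the others was 0.77 for Oasl2, 0.71 for Ifit1, 0.71 for Irf7, 0.64 for Ifi207, 0.62 for Isg15, 0.51 for Ddx60, 0.44 for Ifit3 and 0.25 for Oas3. Bst2 ran against them at -0.44. Over the 11 groups of TBLC, sorted cells and courses at 0 h alone, Oas3 turned to -0.37 and Bst2 stood at -0.39, while the other 7 lay between 0.72 (Ddx60) and 0.92 (Ifi207), with Ifit3 at 0.80. Genes outside the list with the pattern most like the members' mean, of 11911 with a mean of at least 2 CPM, included Cd24a (0.92), Cd34 (0.89), Svop (0.88), Sike1 (0.88) and Adgrg1 (0.88). These values are descriptions: the groups share tables, depth and cultures, and the low members carry counting error.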

How the data were processed

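Raw counts per gene symbol were deposited by the authors as whole numbers. Per the submitters' processing notes, FastQC 0.12.1, Trim Galore, STAR 2.7.11b, Subread, DESeq2 and build mm39 were used upstream. Per the labels' protocols, TRIzol RNA went into total RNA libraries made with 1 of 2 kits and read on 1 of 2 instruments, with no assignment to libraries. In the 8 h course, columns headed TBLC_S were assigned to TBLC_PlaB-, since every other arm had columns under its own name. Peak lists of m6A were not used here.

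Each table was scaled (TMM) and fitted on its own with edgeR 4.0.16 quasi-likelihood tests in R 4.3.3, after filterByExpr (minimum count 10, total 15), with Benjamini-Hochberg adjustment over all genes tested. The fits used all groups of a table. Low counts are given as such, with exact binomial intervals at 95% and a floor of 3 counts per group. Other settings tried were scaling by RLE or library totals, no filter, DESeq2 1.42.0, a replicate block, a fit to the compared libraries alone, each library left out by itself and, for courses, other hours. Leaving out the 1 h libraries was added after seeing the data. Every member was reported, and other genes were named by lowest adjusted p within a role (up to 3), besides Ifnar1, Ifnar2, Stat2 and Irf9. Some genes that these rules pick are not reported here. A few marker and target genes were named as checks. The members and lists were chosen with earlier results of these data known. The scripts were tested on simulated data. No replicate pair of 43 was identical. Of 119 pathway genes listed, 116 were analysed.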

Additional observations from a re-analysis of the deposited data

Results flagged for a closer look

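The slope of Bst2 after actinomycin D differed between the libraries labelled siIgf2bp3 and siNC2, by 0.63 ± 0.13 log2 units per hour (adjusted p = 0.00267, n = 2 per arm and hour, edgeR interaction of arm and hours). The same test called 52.4% of all genes. The difference was called when any 1 library was left out and without the 1 h libraries, and was not called without 0 h (0.43, adjusted p = 0.116). The 1 h libraries of siNC2 stood out of time order, and Igf2bp3 itself was higher than in siNC2 at 0 h. Their part in this difference was not tested.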

How the results depend on the processing

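Replicate numbers did not pair the libraries: correlations of replicate deviations lay between -0.0216 and 0.0359, over 2 pairs. With the replicate block 0 member directions turned, 3 member calls were lost (given above), and genes differing in slope between siVirma and siNC1 went from 1221 to 406. At 0 h in place of 1 to 3 h, the siVirma difference turned to -0.20 for Bst2, -0.24 for Ifitm3, -0.11 for Ifitm1 and -0.85 for Psmb10. The difference for the libraries labelled siIgf2bp3 turned to -0.68 for Bst2, -0.19 for Ifitm3, -0.71 for Ifitm2, -0.0837 for Ifitm1, -1.17 for Psmb10, -0.32 for H2-K1 and -0.0727 for B2m. The slope of Bst2 in siNC1 turned to 0.31 without 0 h. The cause was not tested.

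Counts of all genes called that moved by over 1.5 times were as follows. DESeq2 called 279 in siVirma (863 in edgeR) and 48 in siMettl3 (105) at steady state. For TBLC_PlaB- it called 73 at 0 h (177, or 94 with only the libraries compared) and 1531 over 1 to 3 h (2918). Slope differences of diffTBLC (1188) went to 4023 for 3 h against 0 h and 4728 without 0 h. Those of TBLC_PlaB- (58) went to 982 for 3 h against 0 h, 203 in DESeq2, 27 under library totals, 110 without the filter and 3128 without 0 h. Those of siVirma (1221) went to 8019 for 3 h against 0 h, 3172 in DESeq2, 1 under library totals, 6 without the filter, 0 without 0 h and 7580 without the 1 h libraries. Those of siIgf2bp3 (7110) went to 0 without 0 h.

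Members called moved to 0 for TBLC_PlaB- over 1 to 3 h in DESeq2 and without the filter, and to 2 for siIgf2bp3 over 1 to 3 h without the filter. In slope differences they moved to 1 for diffTBLC (3 h against 0 h), 1 for TBLC_PlaB- (without 0 h), 1 for siVirma (3 h against 0 h, DESeq2, and without the 1 h libraries) and 0 for siIgf2bp3 (without 0 h).

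With 1 library left out, members called ranged from 2 to 3 (PrE-T against EPI-T), 3 to 6 (PrE-T against TBLC), 3 to 4 (EPI-T against TBLC), 3 to 6 (Igf2bp3 RIP), 2 to 3 (Ythdf2 RIP), 0 to 1 (TBLC_PlaB- over 1 to 3 h and siVirma slopes) and 1 to 2 (siIgf2bp3 over 1 to 3 h). Genes called ranged from 495 to 606 (siVirma) and 41 to 49 (siMettl3) at steady state and from 70 to 207 (TBLC_PlaB- at 0 h). In slope differences they ranged from 630 to 1555 (diffTBLC), 8 to 179 (TBLC_PlaB-) and 0 to 5126 (siVirma). Leaving out a library changes which genes pass the filter.

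Under library totals the median of all genes shifted to -0.35 (PrE-T against TBLC), -0.28 (EPI-T against TBLC), -0.21 (Igf2bp3 RIP), -0.18 (diffTBLC at 0 h) and -0.15 (siIgf2bp3 over 1 to 3 h), and no called member changed direction. In each of the steady-state siRNA, Ythdf2 RIP and siIgf2bp3 tables, 7 of 9 members were under the filter. The first 2 held the shallowest libraries, while the siIgf2bp3 course was as deep as that of TBLC_PlaB-, where 8 members passed the filter. With the 11 groups of TBLC, sorted cells and courses at 0 h alone, the correlation of Oas3 with the other members turned to -0.37.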
